A study of Mus musculus with 2 samples.

Results

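Club cells are the non-ciliated secretory cells of the conducting airway epithelium. They release secretoglobins, antimicrobial and surfactant proteins onto the airway surface, and they are the lung cells richest in cytochrome P450 and other enzymes that modify inhaled and circulating small molecules. In airway injury models they are known both as a target of compounds that P450 enzymes make reactive and as a source of repair. The cells described here are the conventional club cells, that is, barcodes rich in Scgb1a1 (the secretoglobin that defines the cell type) and low in the markers of other airway states. A barcode entered with at least 1000 Scgb1a1 counts (UMIs, unique transcript molecules) per 10000 UMIs, under 500 of Sftpc, under 150 of Scgb3a1 and Bpifb1 together, and under 10 of the ciliated genes Foxj1, Ccdc153 and Tmem212 together. It also had under 2 raw UMIs of Upk3a, under 3 of Lypd2 and under 3 of Mki67 and Top2a together. This left 233 of 6983 barcodes, 179 of 3298 in the Control library and 54 of 3685 in the NAPH library.

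Both libraries came from the lungs of adult C57BL/6 mice, sorted by flow cytometry for Epcam, a surface protein of epithelial cells, and were made with the Chromium single-cell 3' chemistry. One library is labelled Control and the other is from mice with NAPH-induced lung injury. The labels give neither the dose, the time after injury, the number of animals nor what the Control mice received. With 1 library per condition no difference between conditions could be tested: the 95% intervals below cover counting error only, and library and condition cannot be told apart.

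The libraries held 41699755 UMIs (Control) and 38497783 UMIs (NAPH), and the shallowest barcodes had 4212 and 3514 UMIs. Club cells were deeper than most barcodes, with a median of 26062 UMIs and 2606 genes in Control and 12932 UMIs and 2181 genes in NAPH. A total of 14 barcode sequences occurred in both libraries, and none of them was a club cell in both. Scgb1a1 RNA was also present in cells that do not make it: its median was 132 per 10000 UMIs in Control immune barcodes and 27.9 in NAPH immune barcodes. It thus formed a background of free RNA that was higher in the Control library. Sftpc RNA ran the other way, with a median of 20.4 per 10000 UMIs in Control and 44.5 in NAPH immune barcodes. The club cell medians of Sftpc, 23.1 and 50.8, were close to these. How far this background entered the levels of other AT2 genes in club cells was not tested.

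Club cells made up 5.43% of Control barcodes (exact binomial interval 4.68 to 6.26) and 1.47% of NAPH barcodes (1.10 to 1.91), a ratio of 0.270 (0.195 to 0.368). The gate's Lypd2 condition works on raw UMIs and so depends on depth. After thinning each barcode to 3500 UMIs the ratio was 0.167, and without the Lypd2 condition it was 0.107. These are shares of sorted barcodes, so they also move with how many other cells were captured.

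**Figure D1:**
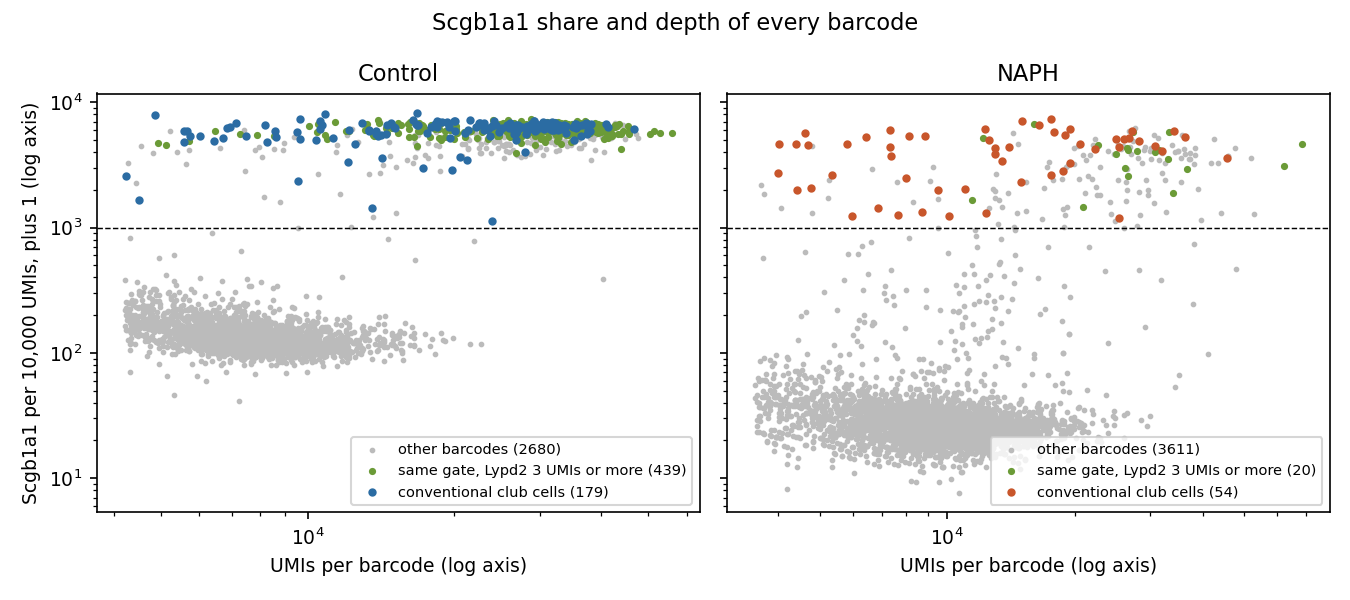
Scgb1a1 per 10000 UMIs, plus 1, against UMIs per barcode, both on log axes, for every barcode of the Control library (left) and the NAPH library (right); coloured points are the 179 and 54 conventional club cells, green points are the 439 and 20 barcodes that miss the gate only through Lypd2, and the dashed line is the minimum of 1000. In Control the club cells and the Lypd2-positive barcodes share 1 band well above most other barcodes, while in NAPH the club cells spread from 1185 to 7317 with barcodes just under the line.

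The club cells were chosen by measured levels of the genes named above, which are therefore given as a description. In Control, Scgb1a1 took up between 1133 and 8267 of every 10000 UMIs in a club cell, with a median of 6350. In NAPH the range was 1185 to 7317 and the median 4403. The nearest Control barcode that failed only the Scgb1a1 condition had 368 per 10000, far below the lowest club cell, whereas the nearest NAPH barcode had 999. For Sftpc the nearest values inside and outside were 487 and 601 in Control and 425 and 959 in NAPH. For Scgb3a1 and Bpifb1 together they were 137 and 305 in Control and 72.6 and 259 in NAPH.

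The Lypd2 limit fell inside a continuous range. In Control, 60 barcodes that met every other condition had 0 Lypd2 UMIs, 72 had 1, 47 had 2, 40 had 3, 33 had 4 and 37 had 5. The club cells therefore merge into 439 Control barcodes with 3 or more Lypd2 UMIs, which were deeper (median 31826 UMIs). In NAPH, 33 barcodes had 0, 13 had 1, 8 had 2 and 3 had 3, and the Lypd2-positive neighbours numbered 20. The word conventional thus marks the low end of a gradient in this gate, with no gap at its edge.

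The identity of the cells was checked with 4 club cell genes that the gate did not use, in counts per 1000000 of all UMIs. Cyp2f2, a P450 enzyme typical of mouse club cells, stood at 5238 in Control and 3724 in NAPH club cells, against 118 and 38.2 in barcodes rich in the alveolar type 2 (AT2) gene Sftpc. Cldn10, a tight junction claudin, stood at 492 and 435 against 5.54 and 4.44 in AT2 barcodes. Gsta3, a glutathione transferase, stood at 333 and 151 against 23.3 and 14.5. Scnn1b, a subunit of the epithelial sodium channel, stood at 139 and 106 against 8.10 and 16.2. All 4 were higher in club cells of both libraries than in AT2 barcodes, so the club cell label held against AT2 barcodes. Cyp2f2 was also present in ciliated barcodes, at 1405 in Control and 1608 in NAPH. The Lypd2-positive neighbours in Control had similar levels of all 4 (6168, 436, 333 and 152 in the order above). These markers therefore did not set the club cells apart from those neighbours.

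Markers of other cells were counted in the club cells per 10000 UMIs other than Scgb1a1. The 6 T, NK and B cell markers had a median sum of 0 in both libraries, with 5 of them at 0 in Control and all 6 in NAPH; the sums of tuft, fibroblast, neuroendocrine, basal and macrophage markers also had medians of 0. The 8 AT2 markers summed to a median of 217 (23.2 to 1284) in Control and 454 (100 to 1692) in NAPH, the 6 AT1 markers to 10.0 (0 to 56.8) and 26.4 (2.33 to 83.7), and the 6 dendritic cell markers to 3.60 (0 to 35.3) and 9.99 (0.930 to 112). Barcodes rich in markers of another class numbered 10 of 179 in Control and 9 of 54 in NAPH. They are kept below, and values without them are given where they matter.

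Scgb1a1 filled a large part of a club cell's UMIs, with medians of 6350 per 10000 in Control and 4403 in NAPH. Levels are therefore given as counts per 1000000 UMIs other than Scgb1a1 (CPM), summed over the club cells of a library. The 3' chemistry counts 1 end per transcript, so levels were not divided by gene length. The gene of highest level in Control was Cbr2, a carbonyl reductase, at 27677 CPM in Control and 18832 in NAPH. Next came Scgb3a2, a secretoglobin of the airway and a target of the lung transcription factor NKX2-1, at 21347 and 37823. Malat1, a nuclear long noncoding RNA, stood at 20028 and 28597, and haptoglobin (Hp), which binds haemoglobin, at 16465 and 18308. Cyp2f2 followed at 13729 in Control and 6567 in NAPH, and Wfdc2, a secreted protease inhibitor family member, at 10754 and 12612.

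The collectin gene Sftpa1, whose product opsonises microbes, stood at 10358 in Control and 27019 in NAPH, and Sftpb, which spreads surfactant, at 6642 and 10133. Tmsb4x, an actin-binding peptide gene, stood at 10186 and 18257. The iron-storage genes Fth1 and Ftl1 stood at 7564 and 6518 in Control and 4442 and 4925 in NAPH. Prdx6, a peroxiredoxin that also acts on phospholipids, stood at 7016 in Control and 1951 in NAPH. Eef1a1 and Tpt1, which serve translation and growth in all cells, stood at 4795 and 4168 in Control and 3543 and 3164 in NAPH. Sftpc, which the gate capped, stood at 8953 and 12084.

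The club cells of the NAPH library had lower levels of Cyp2f2, Cyp4b1, Aldh1a1, Pon1, Prdx6 and 3 glutathione transferase genes, and higher levels of Retnla, Chia1 and Chil1, than those of the Control library. A gene was counted as different when its level differed at least 2 times, among 1149 genes with a mean level of at least 100 CPM and at least 30 UMIs. Of these, 45 (3.92%) were at least 2 times higher and 28 (2.44%) at least 2 times lower in NAPH. Scgb1a1 took a smaller share of NAPH club cells, so scaling to all UMIs moved every log2 ratio up by 0.57, and 118 of the same 1149 genes were then higher and 9 lower. With the level filter also set on all UMIs, which left 582 genes, 60 were higher and 8 lower. Over the 1149 genes the median log2 ratio was -0.13, and edgeR's TMM scaling moved it by 0.02. Of the genes counted, 17 of the higher and 2 of the lower ones were within reach of free RNA, meaning that their level was under 0.2 times that in AT2, ciliated or immune barcodes of the same library. The AT2, AT1 and dendritic marker sums were also higher in NAPH club cells, as given above, and their part in the gene differences was not tested.

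The promoters of 4 genes that differed at least 2 times on the scale without Scgb1a1 are shown. The lower pair (Cyp2f2 and Cyp4b1) can so be set beside the higher pair (Retnla and Chia1). Each runs from 250 bases before to 50 bases after the annotated start in RefSeq (GRCm38.p6), written 5′ to 3′ on the gene's strand, at chr7:27119705-27120004 (plus strand), chr4:115647672-115647971 (minus strand), chr16:48842359-48842658 (plus strand) and chr3:106113132-106113431 (plus strand). Capitals mark matches to TATAAA (the TATA box) and CTCAAG (a core bound by NKX2-1-type factors).
Cyp2f2: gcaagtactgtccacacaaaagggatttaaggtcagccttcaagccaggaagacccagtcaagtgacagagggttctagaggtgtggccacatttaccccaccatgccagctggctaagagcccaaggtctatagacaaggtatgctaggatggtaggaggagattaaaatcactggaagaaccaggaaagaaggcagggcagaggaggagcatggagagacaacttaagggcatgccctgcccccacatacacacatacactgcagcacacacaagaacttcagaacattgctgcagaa
Cyp4b1: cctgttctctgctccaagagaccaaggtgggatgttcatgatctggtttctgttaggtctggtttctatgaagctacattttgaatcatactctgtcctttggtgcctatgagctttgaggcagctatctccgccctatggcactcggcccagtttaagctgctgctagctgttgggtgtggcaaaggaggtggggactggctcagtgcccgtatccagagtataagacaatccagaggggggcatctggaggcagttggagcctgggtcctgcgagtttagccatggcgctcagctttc
Retnla: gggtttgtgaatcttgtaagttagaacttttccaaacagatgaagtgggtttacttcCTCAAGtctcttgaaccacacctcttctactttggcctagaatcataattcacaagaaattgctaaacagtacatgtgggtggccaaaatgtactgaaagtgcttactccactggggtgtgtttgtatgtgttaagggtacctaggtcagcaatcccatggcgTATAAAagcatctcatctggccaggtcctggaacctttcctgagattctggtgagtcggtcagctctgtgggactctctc
Chia1: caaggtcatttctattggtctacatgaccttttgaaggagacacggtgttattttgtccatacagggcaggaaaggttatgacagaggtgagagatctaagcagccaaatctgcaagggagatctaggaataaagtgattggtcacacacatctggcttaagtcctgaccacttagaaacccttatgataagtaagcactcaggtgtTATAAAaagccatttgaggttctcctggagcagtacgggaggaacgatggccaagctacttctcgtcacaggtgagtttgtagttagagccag

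Searched on both strands, TATAAA lay 30 bases before the start of Retnla and 43 bases before that of Chia1, and neither P450 promoter held it in this window. It occurs in 13.6% of the 32851 promoters of the table. CTCAAG lay 193 bases before the Retnla start and occurs in 15.9% of promoters. The FOXA-type core TNTTTAC (12.4% of promoters) and the antioxidant response element core TGACNNNGC (12.4%) were in none of the 4 windows. None of these motifs overlaps another in the sequences shown. Such matches describe the letters only.

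Genes of the P450 system were lower as a group in NAPH club cells. Of 17 listed genes, 7 passed the level filter; 4 of them were at least 2 times lower and none at least 2 times higher, with a median log2 ratio of -1.06 against -0.13 over all genes. All 7 lay below 1, while on all UMIs 6 of 7 did and 1 remained at least 2 times lower. Over all 1149 genes 721 lay below 1, and on all UMIs 110 did. Summed over the 17 genes, single Control cells held 9.92 to 309 UMIs per 10000 other than Scgb1a1 (median 204) and single NAPH cells 20.6 to 221 (median 86.9). The ranges overlap, but the NAPH median lies far down in the Control range.

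Cyp2f2, which oxidises small aromatic compounds such as naphthalene, lies on chromosome 7 (27119909 to 27133660, plus strand, GRCm38). Single Control cells held 0.945 to 233 Cyp2f2 UMIs per 10000 other than Scgb1a1, with a median of 140, and NAPH cells 10.1 to 166, with a median of 63.6. The summed ratio was 0.478 (0.460 to 0.497), and it was 0.711 on all UMIs. In cells of both libraries with 4000 to 7000 Scgb1a1 per 10000 (155 Control and 30 NAPH cells) it was 0.556, and in cells of at least 10000 UMIs 0.490. The medians of the libraries stand far apart while their ranges overlap, and the highest NAPH immune barcode, which should lack the gene, had 10.8 per 10000.

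Cyp4b1, a P450 that acts on fatty acids and foreign compounds, had a larger difference. It lies on chromosome 4 (115624725 to 115647723, minus strand). Single Control cells held 0 to 29.95 per 10000 with a median of 10.5, and NAPH cells 0 to 10.6 with a median of 2.25. The summed level went from 1124 CPM in Control to 275 in NAPH, a ratio of 0.244 (0.203 to 0.292).

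The electron carriers of the system were lower too. Por, the reductase that supplies P450 enzymes with electrons, had a ratio of 0.415 (0.360 to 0.477), and Cyb5a, cytochrome b5, one of 0.419 (0.378 to 0.464). Their median values in single cells were 10.4 and 21.1 per 10000 in Control and 4.64 and 8.70 in NAPH. Pgrmc1, a haem-binding partner of P450s, had a ratio of 0.601 (0.510 to 0.704), and Cyp2b10 one of 0.564 (0.398 to 0.780), both short of a 2 times difference. Alas1, the first enzyme of haem synthesis, had a level of 805 CPM in Control and 388 in NAPH, a ratio of 0.481 (0.410 to 0.563). It was not in the P450 list and was named after its value was seen.

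**Figure D2:**
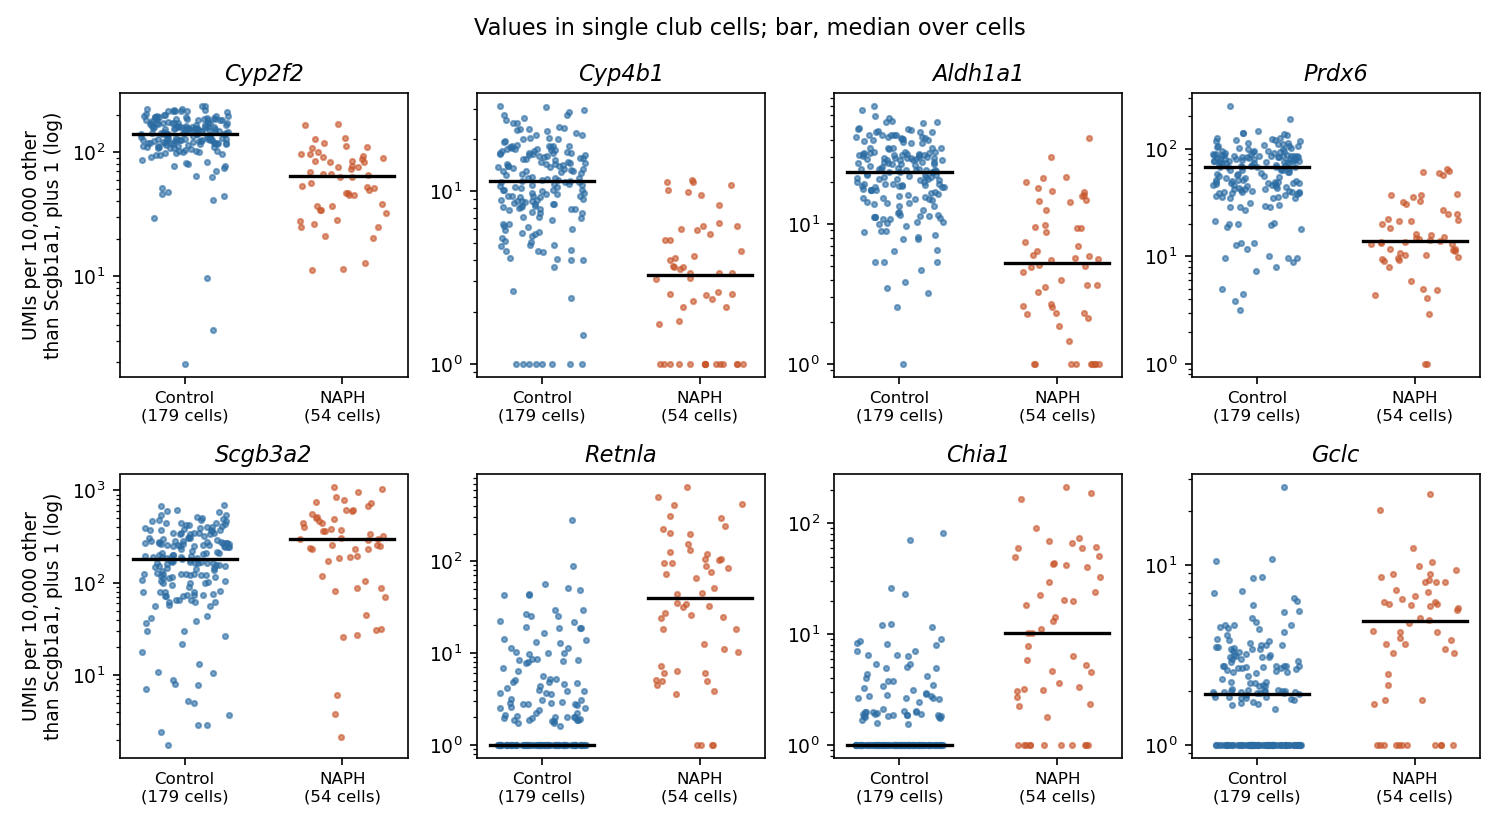
Values of 8 genes in single club cells, as UMIs per 10000 UMIs other than Scgb1a1 plus 1 (log axis), in Control (179 cells, blue) and NAPH (54 cells, orange); each point is 1 cell and the bar is the median over cells. Cyp2f2, Cyp4b1, Aldh1a1 and Prdx6 sit lower in NAPH, Retnla, Chia1 and Gclc sit higher, and the ranges of the cells overlap for all 8.

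The other oxidation and carbonyl metabolism genes ran the same way. Of 29 listed genes 11 passed the filter, 2 were at least 2 times lower and none at least 2 times higher, with a median log2 ratio of -0.83. All 11 were below 1 on this scale, as were 721 of all 1149 genes. On all UMIs 5 of the 11 were above 1, against 1039 of the 1149. Pon1, a paraoxonase that hydrolyses lactones, had 889 and 36 UMIs, a ratio of 0.139 (0.0968 to 0.194). Aldh1a1, which makes retinoic acid from retinaldehyde, had single-cell medians of 22.6 and 4.29 per 10000 and a ratio of 0.301 (0.268 to 0.336). Pon1 and Aldh1a1 were the genes of this list counted as lower. The more abundant members differed less: Ces1d, a carboxylesterase, had a ratio of 0.534 (0.483 to 0.590), Aldh2 one of 0.539 (0.482 to 0.602), and Cbr2 one of 0.680 (0.665 to 0.696), which was 1.01 on all UMIs.

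Conjugating enzymes were split. Of 27 listed genes 11 passed, 3 were at least 2 times lower and none higher, and the median log2 ratio was -0.23, which became 0.34 on all UMIs. Those lower were the glutathione transferases Gsta3 at 0.305 (0.252 to 0.367), Gstm2 at 0.311 (0.246 to 0.388) and Gstm1 at 0.428 (0.375 to 0.486). Gstm1 and Gstm2 are close relatives whose reads may be shared. Mgst1, the most abundant member, had a ratio of 0.894 (0.845 to 0.946), which was 1.33 on all UMIs. Gsto1 had a ratio of 1.35 (1.19 to 1.52), which fell to 0.950 without the highest barcode of each library.

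Genes of glutathione synthesis and the antioxidant factor NRF2 did not move together. Of 24 listed genes 13 passed, with 1 at least 2 times higher, 1 at least 2 times lower and a median log2 ratio of -0.26, which was 0.32 on all UMIs. The higher gene was Gclc, the catalytic subunit of the enzyme that limits glutathione synthesis, with single-cell medians of 0.922 in Control and 3.88 in NAPH and a ratio of 3.51 (2.90 to 4.25). The lower gene was Prdx6, with single-cell medians of 66.5 and 13.0 and a ratio of 0.278 (0.260 to 0.297). The 2 therefore stood on opposite sides within 1 list, and both kept their side on all UMIs (5.22 and 0.413). Nfe2l2 itself, which encodes NRF2, had a ratio of 1.34 (1.03 to 1.75).

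**Figure D3:**
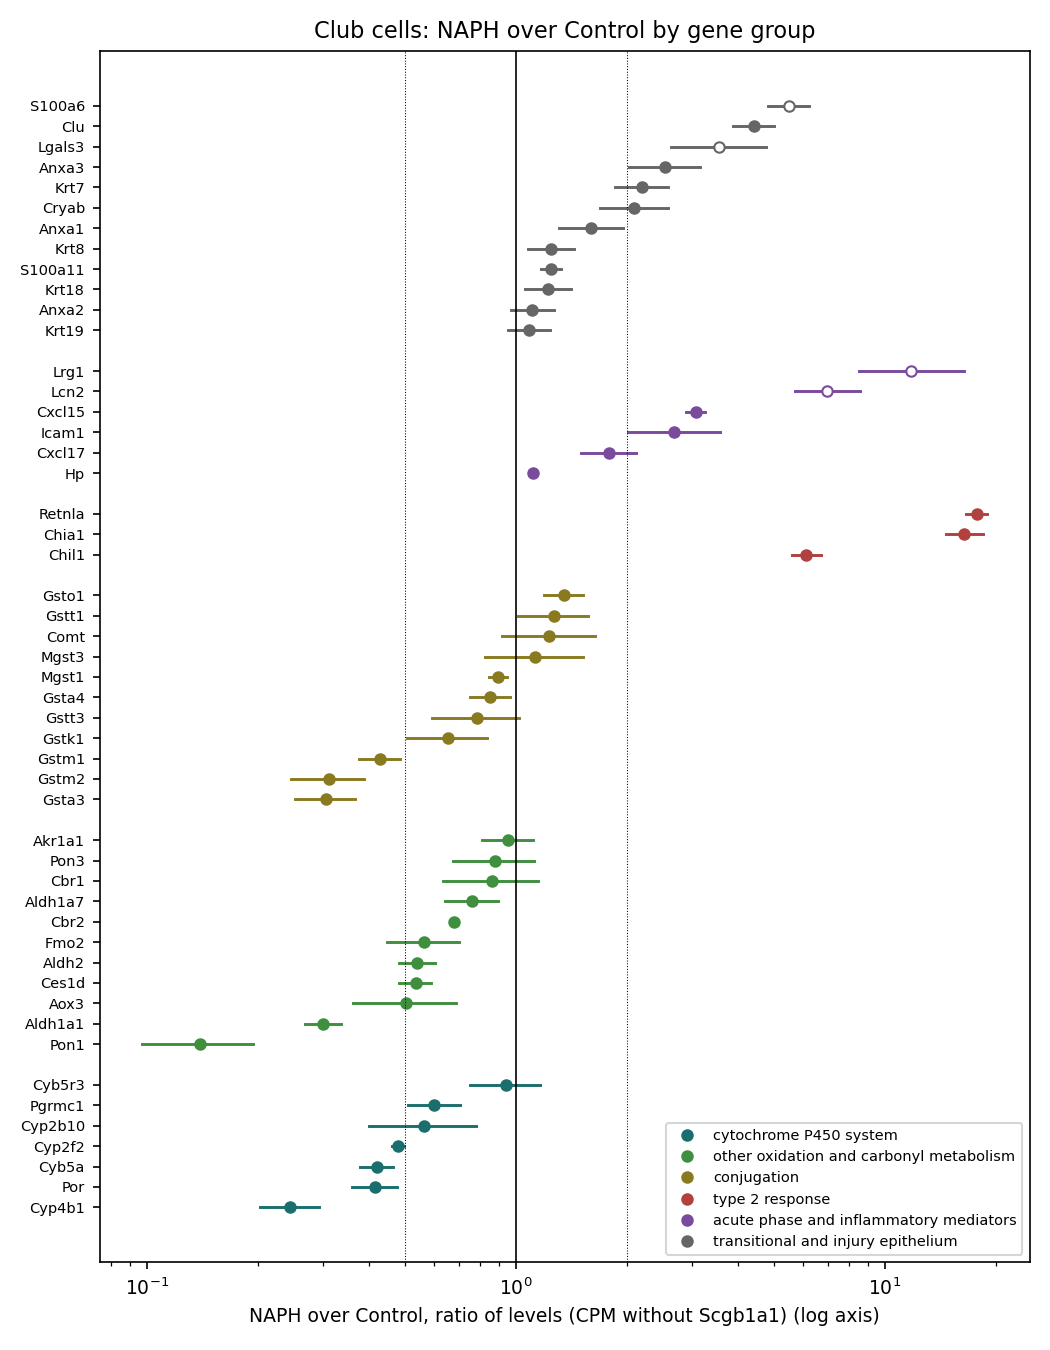
Ratio of NAPH to Control levels, in CPM without Scgb1a1 (log axis), for the members of 6 gene groups that passed the level filter; bars are 95% counting intervals, dotted lines mark 0.5 and 2, and open circles mark genes within reach of free RNA. P450 and oxidation genes lie left of 1, conjugation genes lie on both sides, and the type 2, acute phase and transitional groups lie to the right.

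Secreted products differed gene by gene. Leaving out the gate's own genes, 12 of 20 listed genes passed, 3 were at least 2 times higher (the collectins Sftpa1 and Sftpd, and the lysozyme gene Lyz2, which was within reach of free RNA) and 1 lower, with a median log2 ratio of 0.19. Sftpa1 had single-cell medians of 68.4 and 202 per 10000 and a ratio of 2.61 (2.55 to 2.67), and Sftpd medians of 25.8 and 55.7 and a ratio of 2.17 (2.07 to 2.27); AT2 cells make both in quantity, and the AT2 marker sum, which includes Sftpa1, was also higher. Scgb3a2 ranged from 0.764 to 694 per 10000 in Control cells (median 180) and from 1.13 to 1080 in NAPH cells (median 296), with a ratio of 1.77 (1.74 to 1.80). The lower gene was Scgb1c1, another secretoglobin, with medians of 3.93 and 0.353 and a ratio of 0.342 (0.269 to 0.429). The secretoglobins of club cells therefore differed in direction: Scgb3a2 was higher and Scgb1c1 lower in NAPH. The mucin gene Muc5b had 64 UMIs in all Control and 36 in all NAPH club cells, and Muc5ac had 0 and 3, below the filter.

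The type 2 response list holds genes induced by interleukin 4 and 13. All 3 members that passed, of 20 listed, were at least 2 times higher (45 of all 1149 genes were), with a median log2 ratio of 4.03. Retnla, a small secreted protein of the resistin family, ranged from 0 to 282 per 10000 in Control cells with a median of 0, and from 0 to 637 in NAPH cells with a median of 38.7. Its level was 631 CPM in Control and 11192 in NAPH, a ratio of 17.7 (16.6 to 19.0). Most NAPH cells lay above the Control median of 0, but the Control range lay within the NAPH range. Retnla UMIs were found in 89 of the 179 Control cells.

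Chia1, the acidic mammalian chitinase, had single-cell values from 0 to 80.9 (median 0) in Control and from 0 to 209 (median 9.28) in NAPH, and a ratio of 16.4 (14.6 to 18.4). Chil1, a chitinase-like protein without enzyme activity, had medians of 2.69 and 11.1 and a ratio of 6.12 (5.59 to 6.71). In cells with 4000 to 7000 Scgb1a1 per 10000 the ratios were 25.7 for Retnla, 33.1 for Chia1 and 6.47 for Chil1. Without barcodes rich in other markers they were 15.4, 21.7 and 5.67. Retnla was also present in NAPH barcodes of other types, with a median of 2.34 in AT2 and 1.32 in immune barcodes, well under the club cell median.

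Spink5, which encodes a serine protease inhibitor of epithelia, had 19 UMIs in Control and 135 in NAPH club cells, a ratio of 24.4 (15.03 to 41.8), which was 38.1 without the highest barcode of each library. Its median over single cells was 0 in both libraries and its highest NAPH cell had 22.6 per 10000, so the difference came from some of the cells. Among acute phase and inflammatory genes 6 of 25 passed and 4 were at least 2 times higher (45 of all 1149 genes were), with a median log2 ratio of 1.52. Cxcl15, a neutrophil chemokine of lung epithelium, had medians of 13.5 and 37.3 and a ratio of 3.07 (2.90 to 3.25), and the adhesion molecule Icam1 a ratio of 2.68 (2.01 to 3.57). The others, Lrg1 at 11.7 (8.52 to 16.4) and the siderophore-binding Lcn2 at 6.99 (5.71 to 8.58), were within reach of free RNA.

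Of 28 transitional and injury genes, which mark epithelial cells in repair, 12 passed, and 6 were at least 2 times higher and none lower. All 12 were above 1, with a median log2 ratio of 0.87. Over all 1149 genes 45 were at least 2 times higher and 428 were above 1. Clu, a secreted chaperone, had a ratio of 4.41 (3.89 to 5.002), Anxa3 one of 2.53 (2.03 to 3.15), the keratin Krt7 one of 2.19 (1.86 to 2.58) and the small heat shock protein Cryab one of 2.09 (1.69 to 2.58). Krt7 dropped to 1.70 without the highest barcode of each library. S100a6 at 5.49 (4.83 to 6.24) and Lgals3 at 3.54 (2.64 to 4.77) were within reach of free RNA, and both rested on few cells: 1 NAPH cell held 363 of 636 S100a6 UMIs and 1 held 40 of 96 Lgals3 UMIs. Without the highest barcode of each library their ratios were 3.28 and 2.40. The keratins most used to mark transitional cells differed little: Krt8 had a ratio of 1.25 (1.08 to 1.44) and Krt19 one of 1.09 (0.952 to 1.24).

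Outside the lists, the remaining highest ratios were 3.75 (2.99 to 4.72) for Igfbp7, a binding protein of insulin-like growth factors, 3.68 (3.12 to 4.34) for the protease Ctsc, 3.18 (2.91 to 3.47) for Ager, 2.83 (2.08 to 3.85) for the phospholipase Plb1 and 2.73 (2.02 to 3.69) for the stress gene Gadd45g. Ager is best known from AT1 cells. It had a median of 3.25 per 10000 in Control and 16.7 in NAPH club cells, and it moved with the AT1 marker sum, to which it belongs. The remaining lowest were Slc16a11, a monocarboxylate carrier family member, at 0.328 (0.254 to 0.417), the cell cycle regulator Rgcc at 0.373 (0.266 to 0.512) and the retinol carrier Rbp4 at 0.390 (0.283 to 0.526).

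The Control club cells were then compared with the 439 Control barcodes that failed only through Lypd2. The 2 sets were close. Among 1164 genes tested, 6 (0.515%) were at least 2 times higher and 7 (0.601%) at least 2 times lower in the club cells, 2 of them the gate's own genes Lypd2 and Scgb3a1. Within reach of free RNA were 3 of the 6 higher and 0 of the lower genes. Chia1 had a level of 223 CPM in club cells and 36.8 in the Lypd2-positive barcodes, a ratio of 6.06 (5.06 to 7.26). Ager had a ratio of 3.70 (3.38 to 4.04) and Igfbp6, a binding protein of insulin-like growth factor 2, one of 3.005 (2.66 to 3.39).

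Apart from the gate's own genes, 5 genes were at least 2 times lower in the club cells than in these neighbours. Cd14, a co-receptor for bacterial lipopolysaccharide, had a ratio of 0.344 (0.277 to 0.422), Cxcl17, a mucosal chemokine, one of 0.444 (0.399 to 0.494), and Bpifa1, an antimicrobial airway protein, one of 0.451 (0.406 to 0.4998), which was 0.296 without the highest barcode on each side. Aldh3a1, an aldehyde dehydrogenase, had a ratio of 0.384 (0.320 to 0.458), and Cp, the copper-binding ceruloplasmin, one of 0.496 (0.455 to 0.540). The main club cell enzymes hardly differed: Cyp2f2 had a ratio of 0.858 (0.845 to 0.871), Cyp4b1 one of 0.919 (0.871 to 0.968) and Cbr2 one of 1.10 (1.09 to 1.11). Scgb3a2 was lower in club cells without reaching the limit, at 0.640 (0.632 to 0.647), as was Retnla, at 0.529 (0.495 to 0.566). On all UMIs, under which the level filter left 476 genes, only 1 gene was at least 2 times higher.

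**Figure D4:**
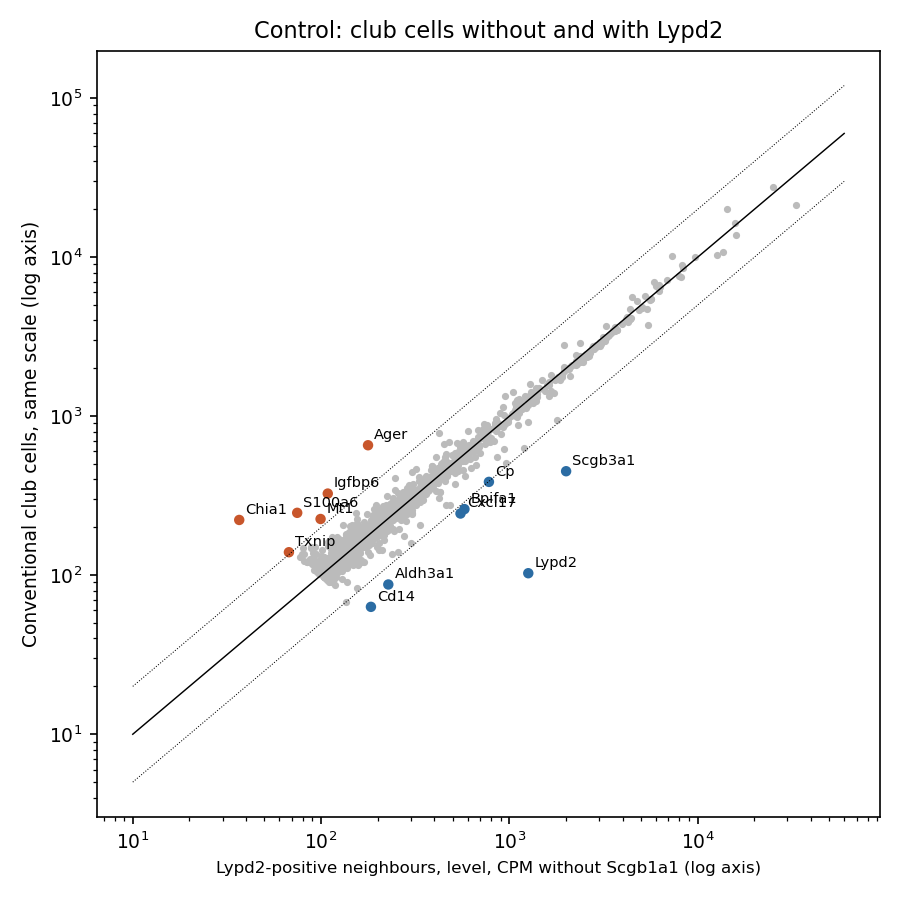
Levels in CPM without Scgb1a1 (log axes) in the 179 Control club cells (vertical) against the 439 Lypd2-positive Control neighbours (horizontal); each point is a gene, the line marks equal levels and dotted lines a 2 times difference. The 6 orange genes are at least 2 times higher and the 7 blue genes at least 2 times lower in club cells, and the other genes lie between the dotted lines.

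Goblet-like neighbours gave a sharper contrast. With the gate's other conditions kept, only 2 Control barcodes exceeded its limit on Scgb3a1 and Bpifb1. With so few, 317 of 1577 genes (20.1%) were counted as higher and 865 (54.9%) as lower in club cells, and no gene is described from this pair. Without the Lypd2 and Upk3a conditions there were 139 (median 25523 UMIs, Scgb1a1 at a median of 4850 per 10000), a set defined after the data were seen. Against these, 91 of 1098 genes (8.29%) were at least 2 times higher and 45 (4.1%) at least 2 times lower in club cells. Of the 91 higher genes 16 were within reach of free RNA, and of the lower genes 0.

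Igfbp6 had 526 UMIs in club cells and 5 in these barcodes, a ratio of 117 (49.6 to 360), Ager a ratio of 19.6 (15.1 to 25.8), and Chia1 one of 11.05 (7.83 to 16.03). Scgb1c1 had a ratio of 8.69 (7.09 to 10.8), Rgcc one of 8.12 (6.10 to 11.01), and the intracellular channel gene Clic3 one of 6.48 (5.54 to 7.62). In the other direction Reg3g, an antimicrobial lectin, had a level of 21.7 CPM in club cells and 8215 in the neighbours, and Tff2, a trefoil peptide of mucous cells, 14.9 and 3165. Bpifa1 stood at 260 and 20965 (1 club cell held 287 of its 420 UMIs there), the chemokine Cxcl5 at 4.34 and 361, and the peptide transporter Slc15a2 at 6.82 and 274. Pdpn, which like Ager is 1 of the 6 AT1 markers, was also at least 2 times lower in club cells, so these 2 AT1 markers differed in direction. Scgb3a2 was lower in club cells too, at 21347 against 60073. Chia1, Ager and Igfbp6 were thus higher in club cells against both Control neighbours, which share the club cells as their other side. For Chia1 both ratios rested on the same few club cells given above.

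P450 genes were split in this contrast. Cyp2f2 had a ratio of 1.34 (1.31 to 1.36), which was 1.0004 on all UMIs. Cyp2a5, a P450 of nasal and airway epithelium, had 14 UMIs in club cells and 452 in the goblet-like barcodes, a ratio of 0.0343 (0.0186 to 0.0582), and was chosen after its value was seen. All 12 transitional genes that passed were lower in club cells, 4 of them at least 2 times. Their median log2 ratio was -0.80, against 0.28 over all 1098 genes of this contrast.

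In the NAPH library the club cells could be set beside 18 barcodes that failed only through Upk3a, a urothelial plaque protein that marks a small club cell subset. Among 1131 genes, 22 (1.95%) were at least 2 times higher and 13 (1.15%) lower in club cells. Of these 22 genes 7 were within reach of free RNA, and of the 13 lower genes 0. On all UMIs 7 were higher and 15 lower. Scgb3a2 was lower in club cells, at 37823 CPM against 81885. Spink5 was lower as well, with a ratio of 0.396 (0.314 to 0.499), as were the lipase relative Pnliprp1 at 0.285 (0.163 to 0.486), Wfdc3 at 0.317 (0.226 to 0.443) and the protease inhibitor Slpi at 0.333 (0.218 to 0.504). Bpifa1 had a ratio of 0.381 that became 1.07 without the highest barcode on each side.

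The genes higher in club cells than in the Upk3a-positive barcodes included Gadd45g at 3.47 (1.88 to 6.99), the transcription factor Jun at 2.57 (1.49 to 4.71), Malat1 at 2.55 (2.45 to 2.66), Igfbp6 at 2.54 (1.47 to 4.65) and Cyp4b1 at 2.52 (1.64 to 4.001). Retnla and Chia1 were at 1.56 (1.47 to 1.64) and 1.59 (1.45 to 1.76), and at 3.06 and 2.07 without the highest barcode on each side. In Control only 6 barcodes were Upk3a-positive.

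Club cells also varied among themselves. Control cells were ranked by their Scgb1a1 share, and the 59 with the most (6552 to 8267 per 10000) were compared with the 59 with the least (1133 to 6034). Their median UMIs were 25642 and 14521, and all 10 barcodes rich in other markers were among the cells with the least. Of 1209 genes, 5 (0.414%) were at least 2 times higher and 28 (2.32%) at least 2 times lower in the cells with the most Scgb1a1. Within reach of free RNA were 0 of the higher and 15 of the 28 lower genes. Without the marker-rich barcodes the counts were 2 and 12, and on all UMIs no gene was counted as higher.

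Pon1 was higher in cells with the most Scgb1a1, at 716 CPM against 265, a ratio of 2.70 (2.21 to 3.32), and Retnla had a ratio of 2.43 (2.04 to 2.90), which was 4.44 without the highest barcode on each side. S100a6 had 6 UMIs in cells with the most and 384 in those with the least, a ratio of 0.0181 (0.00661 to 0.0398), but 5 of the 179 Control cells held 86.7% of its UMIs. Chia1 had a ratio of 0.271 (0.2002 to 0.360) and Igfbp7 one of 0.242 (0.141 to 0.394). Retnla and Chia1 therefore lay on opposite sides of this split, although both were higher in NAPH. Both rested much on few cells, as 5 of the 179 Control cells held 55.4% of Chia1 and 45.1% of Retnla UMIs. Cyp2f2 and Cbr2 varied less, at 1.396 (1.35 to 1.44) and 1.22 (1.19 to 1.25), and turned to 0.922 and 0.803 on all UMIs.

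The same split of the NAPH cells compared 18 with the most (5043 to 7317 per 10000) with 18 with the least (1185 to 3267). Their median UMIs were 17722 and 9103, and 1 and 6 of them were rich in markers of another class. Here 32 of 1157 genes (2.77%) were at least 2 times higher and 60 (5.19%) lower in the cells with the most. Within reach of free RNA were 6 of the higher and 5 of the lower genes. The higher genes included Scgb1c1 at 6.41 (3.13 to 14.8), Aldh1a1 at 2.81 (2.03 to 3.96), Alas1 at 2.67 (1.82 to 3.99), Cyp4b1 at 2.43 (1.503 to 4.03) and Prdx6 at 2.09 (1.77 to 2.47). Cyp4b1 and Prdx6, like Aldh1a1 and Alas1, were among the genes lower in NAPH than in Control; they were named here after their values were seen, and on all UMIs the 4 ratios were between 1.12 and 1.504. Fmo2, Gadd45g and Larp4b were also among the 6 highest of the genes ranked. The 6 lowest were Saa3, Bpifa1, Cdkn1a, Anxa1, S100a16 and Mtch2, and some of these rested on single cells. Over all NAPH club cells, 1 cell held 37 of 45 Saa3 UMIs, 1 held 44 of 63 Bpifa1 UMIs and 1 held 31 of 55 Cdkn1a UMIs. Retnla and Chia1 were at 1.37 (1.29 to 1.47) and 1.09 (0.971 to 1.22), so within NAPH they did not separate these cells 2 times.

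The spread between Control cells beyond counting error was computed for 1895 genes. Its top was set by single barcodes: 1 cell held 138 of the 170 Ltf UMIs (lactoferrin) and 1 held 287 of the 420 Bpifa1 UMIs. Chia1, with 359 UMIs of which its highest cell held 74, and Retnla, with 1018 of which its highest cell held 172, also ranked among the 10 genes of largest spread. S100a6, Muc5b, Scgb3a1 and the cilia genes Dynlrb2, Tmem107 and Tppp3 made up the rest. In NAPH cells 37 of the 45 UMIs of Saa3, an acute phase gene, were in 1 cell.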

How the data were processed

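The deposited matrices hold UMI counts per gene and barcode, not normalised; per the submitters' processing notes the authors used Cell Ranger and the mm10 build, and other settings are not given in the sources at hand. All barcodes were kept. The club cells were gated on UMIs per 10000 and raw UMIs as stated. Levels are UMIs summed over cells per 1000000 UMIs other than Scgb1a1 (CPM), and ratios carry exact conditional Poisson 95% intervals. Genes were counted at a ratio of at least 2 or at most 0.5, given a mean level of 100 CPM and 30 UMIs. The intervals treat UMIs as independent, so spread between cells and animals is not in them. Of 28692 gene IDs, 28339 were in GENCODE vM21, the source of gene coordinates. The members and gene lists were chosen with earlier results of these data known, and 1 gene is not reported here and was left out of its list.

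Genes named were drawn from the gate genes and club markers, the 15 of highest Control level, the 12 highest and 12 lowest NAPH over Control ratios (6 and 6 in other comparisons), up to 3 abundant and 4 extreme members of each list, and the 10 of largest spread. Not every gene of these ranks is named in the text, and some genes outside them are. Ratio ranks skipped ribosomal, mitochondrial, haemoglobin and unnamed genes, as well as any whose counts free RNA could reach. Scrublet's own threshold marked 0.243% and 0.163% of barcodes as doublets, too few to have worked, so none were removed; an alternative removed the 87 and 109 highest scores (8 and 2 club cells). Alternatives covered the denominator, edgeR TMM, the level minimum, thinning, doublets, free RNA and the gate limits. Counts were simulated as Poisson draws for the 1149 genes of the NAPH over Control comparison. They held no extra spread between cells, so coverage near 95% was built in and says nothing of that spread. Intervals held the true ratio for 99%, 94.3% and 95% of genes changed 0.5, 1 and 2 times. Of these genes, 69%, 0% and 14% were counted. The changed genes had shifted the 2 times ratio to 1.85 on this scale and the 0.5 ratio to 0.463. Python 3.11.15, scanpy 1.11.5, scipy 1.17.1, R 4.3.3 and edgeR 4.0.16 were used.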

Additional observations from a re-analysis of the deposited data

How the results depend on the processing

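No paired analysis was possible because each condition has 1 library. Thinning to 3500 UMIs moved the share ratio to 0.167, and dropping the Lypd2 condition to 0.107. Of the genes counted as higher and lower, all UMIs left 8 lower in NAPH over Control, 1 higher against Lypd2-positive barcodes, 7 higher against Upk3a-positive barcodes and 0 higher between Control cells with the most and least Scgb1a1. With no minimum level these comparisons gave 582 and 1156, 479 and 467, 832 and 296, and 288 and 846. A minimum of 300 CPM left 21 higher, 1 higher, 5 and 3, and 2 and 7. Without genes within reach of free RNA, 28 were higher in NAPH. TMM gave 13 lower against Lypd2-positive barcodes. Leaving out each gene's highest barcode gave 40 higher against Upk3a-positive barcodes. The split by Scgb1a1 gave 9 higher with 44 cells a side, 13 and 14 with thinned cells, and 2 and 12 without marker-rich barcodes. Against the 2 goblet-like barcodes the planned counts were 317 (20.1%) and 865 (54.9%), and 115 and 288 on all UMIs, 7005 higher with no minimum, 151 and 80 at 300 CPM, 738 and 162 with TMM, and 91 and 45 with the wider set. The causes were not tested. In all, 31 planned and 6 added values moved, and 36 and 18 did not (counts within 1.5 times of the main count, the share ratio within its interval). Settings with marker-rich barcodes left out, single highest barcodes left out, a Scgb1a1 or depth range, other Lypd2 limits and the wider goblet-like set were added after seeing the data. With 54 NAPH cells, low genes and rare states are beyond this depth.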

Other observations

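Several gene groups of the NAPH and Control club cells differed by less than 2 times. Of 36 listed lineage transcription factors 4 passed the level filter and none was counted: Nkx2-1, the lung identity factor, had a NAPH over Control ratio of 1.16 (0.949 to 1.401) and Foxa2 one of 1.04 (0.746 to 1.42). None of the 17 secretory pathway and unfolded protein response genes that passed was counted. The endoplasmic reticulum chaperone Hspa5 had a ratio of 1.32 (1.11 to 1.57) and Herpud1, a stress-induced membrane protein, one of 0.503 (0.376 to 0.662). None of 24 mitochondrial and energy genes was counted either, with the lactate dehydrogenase genes apart: Ldha had a ratio of 1.57 (1.37 to 1.80) and Ldhb one of 0.606 (0.551 to 0.666), which on all UMIs were 2.34 and 0.901.

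Of the 7 heat shock genes that passed, 6 had ratios below 1, as had 721 of all 1149 genes, and none was at least 2 times lower. Hsp90ab1 was at 0.651 (0.581 to 0.728), and the small chaperone Cryab at 2.09 was counted as higher. On all UMIs the median log2 ratio of this group went from -0.62 to -0.05, against a median of 0.45 over all genes. The water channel Aqp5 had a ratio of 2.02 (1.81 to 2.26). It is also 1 of the 6 AT1 markers, whose sum, which includes it, was higher in NAPH.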
